A study of Homo sapiens and Mus musculus with 5 samples.

Results

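The oligos described here carry 3 SNPs of chromosome 8 that lie inside MSRA, in the region 8p23, and were read in a STARR-seq library of schizophrenia-linked common variants. They were all table entries named by chromosome 8 and a position within 500000 bases above 10000000: SNPs 10175915, 10368845 and 10388815, in 9 oligos and 17 oligo alleles, out of 347 SNPs, 984 oligos and 1625 oligo alleles in the tables. Positions are those of the deposited names, for which the sources used here give no genome build. In the RefSeq gene table of GRCh38.p14 all 3 positions fall within the bounds of MSRA and of no other gene of the table, which holds only if the positions are of that build. That table lists no exons, so whether a SNP is exonic or intronic was not analysed here, and the oligos' bases were not used here. SNP 10368845 lies 192930 bases from 10175915 and 19970 bases from 10388815. The distance between neighbouring SNPs is far longer than an oligo, so no oligo of one SNP overlaps an oligo of another.

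MSRA encodes methionine sulfoxide reductase A, an enzyme that reduces the S form of oxidised methionine back to methionine, both free and within proteins, with electrons passed on from thioredoxin. In the brain, as in other tissues, it is studied as a part of the defence against oxidative damage. STARR-seq does not measure MSRA itself. Each cloned oligo sits in the transcribed part of a reporter plasmid and can act as an enhancer on its own transcript, so that the abundance of its RNA over its abundance in the plasmid pool is read as its activity.

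The same plasmid pool was transfected into 4 lines. Neuro-2a comes from a neuroblastoma of the mouse, and SH-SY5Y from one of a human. HEK-293T is derived from human embryonic kidney, while the rat line PC-12, which the labels list under mouse, comes from a pheochromocytoma. Where values of all 4 lines follow each other without names, they stand in that order. No line carried a further treatment or genotype in the labels. Neuro-2a, SH-SY5Y and HEK-293T had RNA libraries 1, 2 and 3, PC-12 had RNA libraries 1 and 3, and the 3 plasmid input libraries served every line. The labels call the libraries of a kind biological replicates without giving dates or batches, so p-values measure the spread between these libraries. The counts cover reporter oligos alone, so a line's name could not be checked against its marker genes. Each SNP was placed in up to 3 oligos, preceded by 50, 100 or 150 bases and followed by 150, 100 or 50, called front-50, front-100 and front-150 below. Oligos of the same SNP overlap: of 200 flanking bases, front-100 shares 150 with either of the others, and front-50 shares 100 with front-150. The numbers 1 and 2 of the alleles are those of the deposited tables.

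Library totals were 5875437 to 10201521 counts for RNA and 6380682 to 8421333 for the input. RNA library 1 stood apart: in the 3 lines with 3 RNA libraries, chi-square per degree of freedom over all alleles was 1011 to 1529 between library 1 and library 2 or 3, against 361.4 to 791.9 between libraries 2 and 3. In PC-12 it was 1288 between libraries 1 and 3. Input libraries compared with each other gave 40.3 to 48.9, and this narrower spread enters each p-value of RNA against input. Pearson correlations on the log2 scale between library 1 and library 2 or 3 were 0.239 and 0.23 in Neuro-2a and 0.424 and 0.408 in SH-SY5Y. Between libraries 2 and 3 they were 0.336 and 0.56. In HEK-293T they set library 1 apart less: 0.424 for libraries 1 and 2, 0.508 for 1 and 3, and 0.514 for 2 and 3. HEK-293T library 2 had 16.4% of its alleles at a count of 0 and PC-12 library 3 had 9.85%, against 1.02% to 6.8% in the other RNA libraries.

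Of the 18 alleles that 3 SNPs in 3 placements could give, allele 1 of 10368845 in front-50 appeared in no table. The tables held 15 of these alleles for Neuro-2a, 15 for SH-SY5Y, 15 for HEK-293T and 17 for PC-12, and each one reached the minimum mean of 10 counts. That made 62 values of activity, here the log2 excess of RNA over input relative to the library's typical allele. At an adjusted p under 0.05 (edgeR's quasi-likelihood test, Benjamini-Hochberg over all alleles of a line), 13 of the 62 values passed, 11 above the input and 2 below it, from 8 of the 17 alleles. SNP 10388815 gave 10 of them, out of its 24 values, and SNP 10368845 gave the other 3, out of its 20 values and all in PC-12. SNP 10175915 gave 0 of 18, with 4 at an unadjusted p under 0.05, and 4 and 0 calls by DESeq2 and limma-voom. DESeq2 called 27.9%, 31% and 23.6% of all alleles in Neuro-2a, SH-SY5Y and HEK-293T, and its share in PC-12 is not given here. The activity is described SNP by SNP below, starting with the one that holds most of the calls.

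By line, 2 of 15 alleles passed in Neuro-2a, both above the input, where 4.08% of all 1471 alleles passed above it and 1.7% below. In SH-SY5Y, 2 passed above and 1 below, where 7.43% of 1562 alleles passed above and 5.51% below. In HEK-293T, 1 passed above and 1 below, where 1.35% of 1561 alleles passed above and 1.02% below. In PC-12, 6 of 17 passed, all above, where 5.64% of 1614 alleles passed above and 4.77% below. In either direction the 2, 3, 2 and 6 MSRA calls stood beside 5.78%, 12.9%, 2.37% and 10.4% of all alleles. Of the 13 MSRA alleles present in all 4 tables, 2 were called above the input in at least 2 lines, as were 4.11% of 1436 alleles, and 1 was called below it in at least 2 lines, as were 2.99%. The median activity of the MSRA alleles was -0.23, 0.08, 0.13 and 0.09 in the 4 lines, beside 0.01, -0.01, -0.11 and -0.01 over all alleles. The calls came from 5 of the 9 oligos. The calls needed all 3 input libraries: without any 1 of them, none of the 13 passed, and over all alleles 3 of 1562 passed in SH-SY5Y and 0 in each other line.

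Reads of SNP 10388815 made up a larger share of every RNA library than of the input. Its 6 alleles took 0.496% to 0.5225% of the counts of an input library. They took 0.594% to 1.585% of the counts of an RNA library, with the lowest share in HEK-293T library 1 and the highest in Neuro-2a library 3. All 11 RNA libraries lay above all input libraries. The median activity of its 6 alleles was 1.60, 1.10, 0.86 and 0.89 in the 4 lines, beside 0.01, -0.01, -0.11 and -0.01 over all alleles. This SNP was singled out for holding most of the calls, of which 8 of its 10 were above the input. Its larger share is therefore not separate evidence, and the shares of other SNPs were not compared.

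Allele 2 of 10388815 in front-50 was the allele called above the input in the most lines. Its counts were 9496, 7984 and 10155 in the input libraries. The Neuro-2a libraries held 15868, 30722 and 35422, and the SH-SY5Y libraries 25342, 22069 and 25296. Those of HEK-293T held 12946, 19993 and 22698, and those of PC-12 held 21794 and 26235. Every RNA library exceeded every input library in raw counts. Scaled for depth, the activity of single RNA libraries ran from 0.83 to 2.48 on the log2 scale, with no overlap with 0. Library 1 was then the lowest in each line, also in SH-SY5Y (1.08, 1.56 and 1.75), where its raw count was the highest.

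The fitted activity of that allele was 2.02 ± 0.33 (SE) in Neuro-2a, a 4.05-fold excess of RNA over input (adjusted p = 0.0278). It was 1.49 ± 0.19 in SH-SY5Y, or 2.81-fold (adjusted p = 0.0136). It was 1.19 ± 0.19 in HEK-293T, or 2.28-fold (adjusted p = 0.0463), and 1.57 ± 0.15 in PC-12, or 2.96-fold (adjusted p = 0.0114). Being above the input in all 4 lines was uncommon: 10 of the 1436 alleles present in all 4 tables were, or 0.696%. Its activity was not among the highest, at ranks 85 of 1471, 159 of 1562, 203 of 1561 and 134 of 1614 in the 4 lines. With RNA library 1 left out, 41.3%, 54.9% and 31.8% of all alleles passed in the 3 lines that keep 2 libraries. This allele had 2.27, 1.68 and 1.34 there, and passed in each. Without Neuro-2a library 2 it no longer passed there (1.97, adjusted p = 0.0640), and without HEK-293T library 2 it remained past the threshold (1.31, adjusted p = 0.0496).

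Allele 1 of 10388815 in front-50 had lower input counts, 3381, 2976 and 3605. Its RNA counts were 6344, 6818 and 3789 for Neuro-2a, 9522, 4327 and 3592 for SH-SY5Y, 4990, 3365 and 4154 for HEK-293T and, for PC-12, 5806 and 6590. After scaling, all 11 RNA libraries lay above the input, the lowest by 0.04 in HEK-293T library 2 and the highest by 1.38 in Neuro-2a library 2. The activity was 1.08 ± 0.15 in PC-12, where it passed (adjusted p = 0.0266). It was 1.19 ± 0.24, 0.77 ± 0.23 and 0.54 ± 0.29 in the other lines, where it did not (adjusted p = 0.0507, 0.0784 and 0.318). With PC-12 library 1 or 3 left out, so that 1 RNA library remains, the PC-12 value was 1.24 or 0.90 for this allele, and 1.77 or 1.33 for allele 2. Both alleles of front-50 thus lay on the same side of the input in every RNA library. Lying above the input in all 11 RNA libraries held for 113 of 1436 alleles, or 7.87%.

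In front-100, with the SNP in the centre, allele 1 of 10388815 had input counts of 12539, 10734 and 13431. Its RNA counts were 18440, 19045 and 22176 in Neuro-2a, and its activity there was 1.15 ± 0.15 (adjusted p = 0.0226). They were 20857 and 14549 in PC-12, with an activity of 0.69 ± 0.13 (adjusted p = 0.0491), which was 0.50 without library 1 and 0.86 without library 3. In SH-SY5Y the counts were 24489, 10024 and 13912, and in HEK-293T they were 15900, 11816 and 12541. Those libraries lay closer to the input, from -0.03 to 0.72 after scaling, and the activities of 0.39 ± 0.18 and 0.34 ± 0.21 did not pass (adjusted p = 0.186 and 0.391).

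Allele 2 of the same oligo was at a count of 0 in RNA library 1 of Neuro-2a and of HEK-293T. In the same libraries allele 1 of that oligo had 18440 and 15900 counts. The input counts of allele 2 were 5388, 4819 and 6006. Its other RNA counts were 29404 and 28270 in Neuro-2a and 19324 and 16041 in HEK-293T. They were 10565, 14827 and 14222 in SH-SY5Y, and 9305 and 28507 in PC-12. Apart from the 2 libraries at 0, every RNA library lay above the input, by 0.58 to 2.93 after scaling, and library 1 was the lowest in SH-SY5Y and in PC-12. The activity passed in SH-SY5Y (1.43 ± 0.33, adjusted p = 0.0436). It did not in Neuro-2a (2.27 ± 2.15, adjusted p = 0.568), HEK-293T (1.23 ± 1.99, adjusted p = 0.797) or PC-12 (2.02 ± 0.55, adjusted p = 0.0960). Without RNA library 1, 41.3% of all alleles passed in Neuro-2a and 31.8% in HEK-293T. This allele then had 2.83 ± 0.07 and 1.82 ± 0.06 (adjusted p = 0.000137 and 0.000516). Without SH-SY5Y library 2 or 3 it no longer passed in that line (1.24 and 1.33, adjusted p = 0.0906 and 0.0937).

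In front-150, with the SNP near the far end, allele 2 of 10388815 lay below the input. Its input counts were 7633, 6267 and 7937. Its RNA counts were 4226, 1987 and 2114 for Neuro-2a and 3007, 1809 and 1869 for SH-SY5Y. For HEK-293T they were 2214, 1647 and 1762, and for PC-12 they were 1985 and 348. No RNA library reached the lowest input count, and after scaling all 11 lay below the input, from -4.13 in PC-12 library 3 to -0.35 in Neuro-2a library 1. That held for 172 of 1436 alleles, or 12%. The activity was -1.68 ± 0.15 in SH-SY5Y, 3.20-fold under the input (adjusted p = 0.00543), and -1.75 ± 0.26 in HEK-293T, 3.35-fold under it (adjusted p = 0.0423). It was -0.95 ± 0.35 in Neuro-2a and -2.52 ± 0.79 in PC-12, where the libraries spread more and it did not pass (adjusted p = 0.161 and 0.124). Without HEK-293T library 3 the HEK-293T value no longer passed (-1.70, adjusted p = 0.0779). When RNA library 1 was left out it was -1.40, -1.66 and -1.97 in the first 3 lines, and passed in each. In that setting 41.3%, 54.9% and 31.8% of all alleles of these lines passed.

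Allele 1 of front-150 split by library number. It was the rarest MSRA allele of the input, with 608, 557 and 628 counts. In RNA library 1 it had 274, 442, 260 and 333 counts in the 4 lines, all below the input after scaling, from -0.86 to -0.69 on the log2 scale. In RNA libraries 2 and 3 it had 7023 and 7788 counts for Neuro-2a, 2894 and 3782 for SH-SY5Y and 2261 and 4727 for HEK-293T, and 822 in the remaining library 3, that of PC-12. Those 7 libraries all lay above the input, by 0.71 to 4.24, so that library 1 and the others did not overlap. With all libraries the activity was 3.52 ± 1.16, 2.24 ± 0.90, 2.16 ± 0.96 and 0.15 ± 0.53 in the 4 lines, and none passed (adjusted p = 0.134, 0.142, 0.248 and 0.864). Leaving out RNA library 1 gave 4.05 ± 0.16, 2.79 ± 0.15 and 2.69 ± 0.43 in the first 3 lines, all past the threshold (adjusted p = 0.000340, 0.000379 and 0.0141). In that setting 41.3%, 54.9% and 31.8% of all alleles of these lines passed.

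Allele 2 of 10388815 lay above the input with the SNP early in the oligo and below it with the SNP late. The difference of front-50 minus front-150 in activity was 1.57, 3.61 and 3.73 in the 3 Neuro-2a libraries and 2.74, 3.27 and 3.42 in those of SH-SY5Y. For HEK-293T it was 2.21, 3.26 and 3.35, and for PC-12 it was 3.12 and 5.89. Front-50 was the higher in all 11 RNA libraries, with the smallest difference in library 1 of each line. In one fit per line over both placements the difference was 3.14 ± 0.24 in SH-SY5Y and passed (adjusted p = 0.00718). It was 2.996 ± 0.65, 2.94 ± 0.36 and 4.50 ± 0.98 for Neuro-2a, HEK-293T and PC-12, which did not pass (adjusted p = 0.122, 0.0564 and 0.113). With RNA library 1 left out it was 3.67 ± 0.08, 3.34 ± 0.08 and 3.30 ± 0.08 in the first 3 lines, and passed in each (adjusted p = 0.000505, 0.000253 and 0.000823). Calls were common in that setting: by activity, 41.3%, 54.9% and 31.8% of all alleles of these lines passed. The share of all placement differences that passed in it is not given here.

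Front-100 of the same allele was also higher than front-150 in SH-SY5Y, by 2.24, 3.46 and 3.36 in its libraries. The fitted difference was 3.02 ± 0.39 (adjusted p = 0.0356), and 2.80 without SH-SY5Y library 2 (adjusted p = 0.0513). In the other lines the same pair gave 2.66 ± 4.11, 2.21 ± 3.91 and 4.72 ± 1.51 for Neuro-2a, HEK-293T and PC-12, the first and second with a library at 0 (adjusted p = 0.797, 0.803 and 0.221). Front-50 and front-100 of allele 2 were near each other in SH-SY5Y, at 0.12 ± 0.22 (adjusted p = 0.767). Without any 1 input library neither SH-SY5Y difference passed (adjusted p = 0.0938 to 0.0997 for front-50 and 0.278 to 0.283 for front-100, each against front-150). These were 2 of the 12 placement differences tested among MSRA alleles in SH-SY5Y, where 2.6% of 1193 differences passed. None of 13, 12 and 16 passed in Neuro-2a, HEK-293T and PC-12, where 1.22%, 0.337% and 4.25% of all differences passed. At an unadjusted p under 0.05 there were 1, 4, 2 and 5 among the MSRA alleles of the 4 lines, beside 14.2%, 23.2%, 12.3% and 19.7% of all differences. By DESeq2 there were 1, 4, 3 and 10 calls, and by limma-voom 2 in each line but HEK-293T, which had 1. The shares of all differences called by these 2 tools are not given here, and those above are edgeR's. DESeq2 called more in general: by activity 27.9%, 31% and 23.6% of all alleles in Neuro-2a, SH-SY5Y and HEK-293T. By edgeR that was 5.78%, 12.9% and 2.37%.

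Being called above the input in one placement and below it in another was rare. In SH-SY5Y, allele 2 of 10388815 was 1 of 6 SNP alleles with that pattern among 583 seen in more than 1 placement (1.03%). In HEK-293T it was the only one among 582 (0.172%). No MSRA allele did so in Neuro-2a or PC-12, where 0% and 0.673% of SNP alleles did. The front-50 oligos were not in general the more active: they were the higher of the pair in 47.2% to 50.7% of SNP alleles, depending on the line. By that difference allele 2 of 10388815 ranked 17 of 342, 18 of 388, 30 of 379 and 21 of 410 in the 4 lines.

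Allele 1 of 10388815 ran the other way in RNA libraries 2 and 3 of Neuro-2a, SH-SY5Y and HEK-293T. There front-50 minus front-150 was -2.51 and -3.51, -1.89 and -2.54, and -1.90 and -2.66. In library 1 of the same lines it was 2.06, 1.96 and 1.79, and in PC-12 it was 1.65 and 0.53. The sign of allele 1 thus followed the library number in those 3 lines and did not in PC-12. The fitted differences of -1.65 ± 1.64, -1.02 ± 1.31, -1.10 ± 1.34 and 1.09 ± 0.44 did not pass in any line (adjusted p = 0.701, 0.662, 0.741 and 0.286).

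The study's title asks for activity that differs between the alleles of a SNP. The allelic effect is the activity of allele 2 minus that of allele 1 in the same oligo, and it was tested in 6 MSRA oligos each of Neuro-2a, SH-SY5Y and HEK-293T and in 8 of PC-12. By edgeR's quasi-likelihood test none passed in any line, where 0.187%, 0.166%, 0% and 0% of all oligos passed. At an unadjusted p under 0.05 there were 0, 2, 0 and 2 of them, beside 10.9%, 13.5%, 4.13% and 7.24% of all oligos. The calls by DESeq2 were 1, 1, 0 and 2, and limma-voom made none. The share of all oligos called by DESeq2 is not given here, and edgeR's shares are no base rate for its calls.

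The oligo with the largest mean allelic effect of 10388815 was front-150. Allele 1 was 7.38%, 8.16% and 7.33% of the oligo's counts in the input libraries. In RNA library 1 it was 6.09%, 12.8%, 10.5% and 14.4% in the 4 lines. In RNA libraries 2 and 3 it was 77.95% and 78.65% for Neuro-2a, 61.5% and 66.9% for SH-SY5Y and 57.9% and 72.9% for HEK-293T, and in library 3 of PC-12 it was 70.3%. In library 1 the share was thus below the input shares in Neuro-2a and above them in the other lines, while allele 1 held most of the counts in every other RNA library. The 95% Wilson interval of each of these shares reached at most 2.69 points from it, for counting error only, since PCR reads are not independent molecules.

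As an allelic effect, that oligo gave 0.35, -5.42 and -5.48 in the Neuro-2a libraries and -0.83, -4.28 and -4.61 in those of SH-SY5Y. It gave -0.51, -4.05 and -5.02 in those of HEK-293T, and -1.02 and -4.84 in those of PC-12. Allele 2 was the less active in 10 of 11 RNA libraries. The fit gave -4.04 ± 1.92, -3.38 ± 1.14, -3.36 ± 1.37 and -2.93 ± 1.39 in the 4 lines (adjusted p = 0.518, 0.355, 0.677 and 0.590). Without library 1 it was -5.45 ± 0.17, -4.45 ± 0.18 and -4.54 ± 0.43 in the first 3 lines, and passed in each (adjusted p = 0.00106, 0.000291 and 0.00728). That setting also raised the share of all oligos called, to 30.5%, 46.9% and 20.8%.

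The other oligos of 10388815 differed between the library numbers in the opposite direction. In front-100, allele 1 was 69.0% to 69.9% of the input counts. In RNA library 1 it was 69.9% in SH-SY5Y and 69.2% in PC-12, and 100% in Neuro-2a and HEK-293T, where 0 of 18440 and 0 of 15900 counts allow allele 2 a share of up to 0.0163% and 0.0189% by counting error alone. Libraries 2 and 3 of these lines held 16041 to 29404 counts of that allele, so the spread between libraries was far wider than that limit. In RNA libraries 2 and 3 it was 33.8% to 49.45%. In front-50, allele 1 was 26.2% to 27.15% of the input counts, 21.0% to 28.6% of those of RNA library 1 and 9.66% to 20.1% of those of libraries 2 and 3. In both oligos the shares of library 1 lay above those of libraries 2 and 3 without overlap. Without RNA library 1, the allelic effect of front-100 passed in Neuro-2a, SH-SY5Y and HEK-293T (1.67 ± 0.12, 1.48 ± 0.18 and 1.71 ± 0.14; adjusted p = 0.00389, 0.00442 and 0.00534). That of front-50 passed in SH-SY5Y and HEK-293T (1.11 ± 0.16 and 1.04 ± 0.09; adjusted p = 0.00725 and 0.00601) and not in Neuro-2a (1.23 ± 0.35, adjusted p = 0.0733).

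A split between RNA library 1 and the others was common among all oligos. Over the 514 oligos with both alleles in all 4 tables, 151 had no overlap of allele shares between the 4 libraries numbered 1 and the 7 others (29.4%). All 3 oligos of 10388815 were among them and neither of the 2 oligos of 10368845 was. The mean share of allele 1 in front-150 was 10.9% in library 1 and 69.4% in the others, a gap of 58.5 points that ranked 12 of 514 by size. The gaps of front-100 and front-50 were -43.5 and -11.0 points, at ranks 39 and 305. The part of the library number in the allelic effects was not tested beyond leaving library 1 out.

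SNP 10368845 gave its 3 calls in PC-12. Allele 1 of front-100 had 685, 609 and 741 counts in the input and 1566 and 2654 in PC-12, an activity of 1.83 ± 0.34 or 3.56-fold (adjusted p = 0.0491). Allele 2 of front-100 had 1848, 1642 and 2046 in the input and 4147 and 3305 in PC-12, an activity of 1.18 ± 0.14 or 2.26-fold (adjusted p = 0.0176). Allele 2 of front-150 had 1582, 1238 and 1717 in the input and 2999 and 2589 in PC-12, an activity of 1.06 ± 0.15 or 2.09-fold (adjusted p = 0.0266). Both PC-12 libraries exceeded all input libraries for each of the 3 alleles. With PC-12 library 3 left out the values were 1.30, 1.26 and 1.09, and with library 1 left out they were 2.22, 1.09 and 1.04. Each then rests on a single RNA library.

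The same alleles varied in sign in the other lines. Allele 1 of front-100 had 246, 1112 and 0 counts for Neuro-2a, 1630, 1113 and 203 for SH-SY5Y and 752, 1318 and 1121 for HEK-293T. Its activities there were -0.23 ± 1.95, 0.49 ± 0.65 and 0.81 ± 0.48 (adjusted p = 0.964, 0.647 and 0.368). Allele 2 of front-100 had 1754, 1388 and 455 counts for Neuro-2a, 2901, 1089 and 2507 for SH-SY5Y and 1658, 2502 and 1219 for HEK-293T. Libraries of one line lay on both sides of the input, and the activities of -0.21, 0.26 and 0.13 did not pass (adjusted p = 0.856, 0.653 and 0.881). Allele 2 of front-150 had 1546, 535 and 535 counts for Neuro-2a, 2798, 724 and 1232 for SH-SY5Y and 1632, 697 and 1133 for HEK-293T. Its activities were -0.35, 0.01 and -0.15, with library 1 the highest in each line (adjusted p = 0.774, 0.993 and 0.900). Allele 1 of front-150 did not pass in any line, at -0.55, -0.50, -0.30 and 0.09.

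Allele 2 of 10368845 in front-50 lay below the input in all 11 RNA libraries, from -2.28 to -0.39 on the log2 scale. Its input counts were 10351, 8571 and 11082. Its RNA counts were 4404, 3874 and 5234 for Neuro-2a, 8434, 2492 and 1672 for SH-SY5Y, 4696, 5104 and 3146 for HEK-293T and, for PC-12, 6137 and 2422. No RNA count reached the lowest input count. The activities were -0.70 ± 0.21, -1.37 ± 0.44, -1.02 ± 0.23 and -1.08 ± 0.39, and none passed (adjusted p = 0.112, 0.0870, 0.0877 and 0.154).

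The largest mean placement difference of 10368845 was that of allele 2 between front-100 and front-50. Front-100 minus front-50 was 1.11, 0.95 and -1.09 in the Neuro-2a libraries, 0.90, 1.24 and 3.02 in those of SH-SY5Y, 0.93, 1.41 and 1.07 in those of HEK-293T and 1.87 and 2.88 in those of PC-12. Front-100 was the higher in 10 of 11 libraries, the exception being Neuro-2a library 3. The fit gave 0.35 ± 0.70, 1.70 ± 0.62, 1.14 ± 0.33 and 2.38 ± 0.38 in the 4 lines, and none passed (adjusted p = 0.838, 0.183, 0.317 and 0.0614). Its largest mean allelic effect was in front-100, at 1.93 ± 2.92, -0.05 ± 1.06, -0.71 ± 0.62 and -0.58 ± 0.45 (adjusted p = 0.864, 0.986, 0.781 and 0.590). Allele 1 was 26.6% to 27.05% of the input counts of that oligo. Its share of the RNA counts was 12.3%, 44.5% and 0% in Neuro-2a, where 0 of 455 counts allow up to 0.659% by counting error alone and the other libraries of the line held 246 and 1112. It was 36.0%, 50.5% and 7.49% for SH-SY5Y, 31.2%, 34.5% and 47.9% for HEK-293T and, for PC-12, 27.4% and 44.5%. These shares lay on both sides of the input in Neuro-2a and SH-SY5Y and above it in HEK-293T and PC-12, and the Wilson intervals of this oligo reached at most 2.09 points.

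SNP 10175915 had the most counts of 0. They made up 9 of its 48 RNA values (18.8%), against 1 of 55 for 10368845 and 2 of 66 for 10388815. Its input counts also varied the most. Their coefficient of variation over the 3 input libraries after scaling to library totals was 8.10% to 37.2% for its 6 alleles, ranks 183 to 26 of 1614, where the median allele had 2.99%. The 11 other MSRA alleles had 0.353% to 6.63%. Whether the spread of the input bears on the zeros was not tested.

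Of the 9 zeros of 10175915, 3 fell in Neuro-2a library 2, 2 in SH-SY5Y library 2 and 2 in PC-12 library 3, with 1 each in library 1 of HEK-293T and of PC-12. Allele 2 of front-100, with 11581, 9688 and 10748 counts in the input, had 6231, 0 and 4938 for Neuro-2a and 9734, 0 and 6567 for SH-SY5Y. For HEK-293T it had 9209, 5014 and 5721, and for PC-12 it had 6203 and 2765. Apart from the 2 libraries at 0 it held 2765 counts or more in each library, and HEK-293T library 1 was the only one above the input after scaling. Allele 1 of front-100 had 1489, 1419 and 1264 counts in the input, 2551, 0 and 1399 for SH-SY5Y, 1202, 1045 and 2213 for HEK-293T and, for PC-12, 595 and 656. Both alleles of that oligo were hence at 0 in the same SH-SY5Y library 2.

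In front-150, allele 2 of 10175915 had 503, 908 and 1132 counts in the input. It had 124, 600 and 2043 counts for Neuro-2a, 197, 584 and 549 for SH-SY5Y, 0, 46 and 598 for HEK-293T and, for PC-12, 0 and 17. The PC-12 counts were the lowest, and the activity there was -6.38 ± 2.13 (adjusted p = 0.133). Allele 1 of that oligo, with 796, 1052 and 1018 counts in the input, had 198, 0 and 441 in Neuro-2a and 144 and 0 in PC-12. It lay below the input in all 5 libraries and did not pass (-1.68 ± 1.90 and -3.66 ± 2.30, adjusted p = 0.652 and 0.338).

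In front-50, allele 1 of 10175915 had 1572, 1611 and 1484 counts in the input. It had 1655, 1719 and 1318 for SH-SY5Y, 801, 892 and 1383 for HEK-293T and, for PC-12, 1129 and 0. Allele 2 had 1998, 2045 and 1793 in the input, 1631, 0 and 918 in Neuro-2a and 854 and 365 in PC-12. All 6 alleles of the SNP had a negative activity in PC-12, from -6.38 to -0.99, and in each other line 3 of 4 did. None passed in PC-12 either, the smallest adjusted p being 0.105 for allele 2 of front-50 (-1.55 ± 0.44).

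By placement and allele, 10175915 was the least well measured of the 3 SNPs. Its largest mean allelic effect was that of front-50, seen in PC-12 alone, at 3.56 ± 4.73 with allele 1 at 0 in library 3 (adjusted p = 0.654). It was -0.73 in library 1 by itself. Its largest mean placement difference was that of allele 1 between front-100 and front-150, also in PC-12 alone, at 5.09 ± 3.55 with a library at 0 (adjusted p = 0.488). In each of these a single library at 0 stood against one with counts.

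Between lines, 13 of the 1436 alleles in all 4 tables were MSRA alleles. In a fit over all 14 libraries none of the 13 differed in activity between the lines by edgeR's quasi-likelihood test, and 1 of all 1436 did (0.0696%). At an unadjusted p under 0.05 there was 1 of the 13, beside 6.69% of all alleles, and DESeq2 and limma-voom called 0 of the 13. That one was allele 1 of 10388815 in front-100 (adjusted p = 0.636), whose activity of 1.15 in Neuro-2a stood beside 0.39, 0.34 and 0.69 in the other lines. RNA libraries with the same number deviated together across lines, and with that number as a block this allele passed (adjusted p = 0.0464), as did 3.48% of all alleles. Of the 78 differences between pairs of lines, none passed without the block, as 0.0348% of all did, and 5 had an unadjusted p under 0.05. With the block, 3 passed, each lower than Neuro-2a.

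Allele 1 of 10388815 in front-100 was lower in HEK-293T than in Neuro-2a by every library number, with differences of -0.31, -1.01 and -1.16. The fit gave -0.69 ± 0.23 without the block (adjusted p = 0.393) and -0.72 ± 0.14 with it (adjusted p = 0.0267). For SH-SY5Y minus Neuro-2a the same allele gave -0.41, -0.97 and -0.92 by number, and -0.69 ± 0.14 with the block (adjusted p = 0.0331). Allele 2 of 10388815 in front-50 gave -0.39, -0.94 and -0.98 for HEK-293T minus Neuro-2a, and -0.66 ± 0.14 with the block (adjusted p = 0.0314). All 3 passed with the block when the libraries numbered 1 were left out, and none did without those numbered 2 or 3 (adjusted p = 0.0816 to 0.136). Over all alleles the block gave calls for 3.27% in SH-SY5Y minus Neuro-2a and 4.53% in HEK-293T minus Neuro-2a. In the pairs with no MSRA call it gave 1.18% for PC-12 minus Neuro-2a, 0% for HEK-293T minus SH-SY5Y, 0.766% for PC-12 minus SH-SY5Y and 0.627% for PC-12 minus HEK-293T.

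Without the RNA libraries numbered 1, other alleles of 10388815 passed in the comparison of all lines without the block. They were allele 2 of front-100 (adjusted p = 0.00887) and allele 2 of front-150 (adjusted p = 0.0412), among 44 of all alleles. PC-12 then enters with library 3 alone, which is assumed to vary like the libraries of the other lines. With PC-12 left out too, allele 2 of front-100 passed (adjusted p = 0.0118) and allele 2 of front-150 did not (adjusted p = 0.525). Their activities without library 1 were 2.83, 1.75, 1.82 and 2.65 for front-100 and -1.40, -1.66, -1.97 and -4.13 for front-150 in the 4 lines. Allelic effects were compared between lines in 5 MSRA oligos of 514, and none differed by edgeR, DESeq2 or limma-voom, with 0 of the 5 at an unadjusted p under 0.05. Over all 514 oligos edgeR's test called 0%, and 4 had an unadjusted p under 0.05, so the absence of calls was general. The smallest unadjusted p among the 5 was 0.550. The lines share the input libraries, so that a shared direction across lines is not independent evidence.

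The alleles most like allele 2 of 10388815 in front-50 came from other chromosomes. Likeness was the root mean square difference in activity over the 11 RNA libraries, with a median of 2.09 over all alleles compared. The nearest was allele 1 of the SNP at chromosome 17, 19391511, in front-100 and in no gene of the table (0.242). Next were allele 2 of the SNP at chromosome 7, 1977810, in front-50 and inside MAD1L1 (0.284), and allele 1 of the SNP at chromosome 3, 128174008, in front-100 and inside EEFSEC (0.404). Their activities were 1.99, 1.68, 1.43 and 1.51, then 1.87, 1.70, 1.34 and 1.66, and then 1.49, 1.25, 1.12 and 1.24 in the 4 lines.

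Other genes of methionine repair were nearly absent from the library. Of MSRB1, MSRB2 and MSRB3, which reduce the R form of oxidised methionine, and the thioredoxins and thioredoxin reductases TXN, TXN2, TXNRD1, TXNRD2 and TXNRD3, only TXNRD1 held a SNP, at chromosome 12, 104237774. Its 5 alleles gave 20 values over the 4 lines, with a smallest adjusted p of 0.0583, for allele 2 of front-150 in PC-12 (0.61 ± 0.12). The highest activities were 1.60 ± 0.48 for allele 1 of front-100 in Neuro-2a (adjusted p = 0.112) and 1.20 ± 0.45 for the same allele in PC-12 (adjusted p = 0.163). None of the SNPs lay in the 8p23.1 neighbours TNKS, PRSS51, PRSS55, RP1L1, SOX7, PINX1, XKR6, BLK and GATA4. The alleles of the 14 other SNPs of chromosome 8 had median activities of 0.36, 0.15, -0.11 and 0.23 in the 4 lines.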

How the data were processed

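Per the labels, polyadenylated RNA and the plasmid pool were amplified by PCR and sequenced in paired-end reads. The authors deposited whole-number counts per oligo and allele, unnormalized, in 1 table per line. The submitters' processing notes name limma 3.40.6. Aligner, counting tool and build: not given in the sources used here. RNA replicate 2 of PC-12 was not used here.

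Counts were analysed in R 4.3.3 with edgeR 4.0.16: scaling by the trimmed mean of M values, a minimum mean of 10 counts, and the quasi-likelihood test with Benjamini-Hochberg adjustment over all alleles, oligos or placement pairs of a line, two-sided, at 0.05. RNA was tested against input, with library terms and an interaction for allelic and placement effects. Each SE is the estimate's size over the square root of F. Activities of single libraries used a pseudocount of 0.5. The tests were run on simulated data first. Those data had the same spread for all alleles and libraries, smaller than estimated here, and no split by library number. They do not show how the tests perform on libraries spread like these. Alternatives used DESeq2 1.42.0 and limma 3.58.1.

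Values are given per library for alleles called in a line, for each SNP's largest mean allelic and placement effects and for alleles with an RNA count of 0, and the 3 alleles nearest to the one called in the most lines are named. These members, lists and rules were chosen with earlier results of these data known. In a check of pairing over 1043 alleles without a 0, same-numbered RNA libraries of different lines deviated together in 15 of 15 pairs (r = 0.147 to 0.712). Differently numbered RNA libraries of different lines did so, with r over 0.1, in 9 of 30 pairs (r = -0.686 to 0.539). RNA and input of the same number did so in 3 of 11 pairs. The number was therefore taken to pair RNA libraries between lines, and not RNA with input, so that blocked values are given beside results between lines alone. Leaving PC-12 out together with RNA libraries 1, and leaving out a number in blocked pairs of lines, were chosen after the data were seen. No libraries agreed within sampling noise.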

Additional observations from a re-analysis of the deposited data

How the results depend on the processing

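The number of MSRA alleles called was, in line order (Neuro-2a, SH-SY5Y, HEK-293T, then PC-12), 2, 3, 2 and 6. It was 0, 1, 0 and 0 at an adjusted p of 0.01, 5 in SH-SY5Y at 0.1, and 6, 6 and 13 by DESeq2 in Neuro-2a, SH-SY5Y and PC-12. Of all alleles, 26.4% passed in SH-SY5Y at 0.1, and DESeq2 called 27.9% in Neuro-2a and 31% in SH-SY5Y. The share of all alleles that DESeq2 called in PC-12 is not given here, so its 13 calls there have no base rate beside them. By limma on log2 ratios, whose spread is that of the RNA libraries alone, the number of MSRA alleles called was 0 in every line. Over all alleles it also called 0 in Neuro-2a, SH-SY5Y and HEK-293T. Leaving out single libraries gave 0 to 7 in Neuro-2a, 0 to 7 in SH-SY5Y, 0 to 7 in HEK-293T and 0 to 17 in PC-12. The lowest came with any input library left out. The highest came without RNA library 1, when 41.3%, 54.9% and 31.8% of all alleles passed in Neuro-2a, SH-SY5Y and HEK-293T. Within a line, the block can only tie RNA to the input of the same number. There it gave 0 MSRA activity calls in every line, and 0 in place of 2 MSRA placement calls in SH-SY5Y. The loss of activity calls was not particular to MSRA. With this block, SH-SY5Y had 1 call among all its 1562 alleles, and every other line had 0. The share of all placement differences called with it is not given here. RNA and input libraries of the same number are not known to pair. In the check of pairing, r was over 0.1 in 3 of 11 such pairs and in 0 of 22 pairs of different number.

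No allelic effect was called. DESeq2 called 1, 1 and 2 in Neuro-2a, SH-SY5Y and PC-12, and leaving out single libraries gave 0 to 2, 0 to 3, 0 to 3 and 0 to 8 in the 4 lines. Placement calls were 0, 2, 0 and 0. They were 1 in SH-SY5Y at 0.01, 1 in HEK-293T and 2 in PC-12 at 0.1, 1, 4, 3 and 10 by DESeq2, 2, 1 and 2 by limma-voom in Neuro-2a, HEK-293T and PC-12, and 1 and 2 in HEK-293T and PC-12 with alleles at 0 in an RNA library left out. Leaving out single libraries gave 0 to 5, 0 to 6 and 0 to 6 in Neuro-2a, SH-SY5Y and HEK-293T. The shares of all placement differences called under these alternatives are not given here. Between lines, the count of 0 became 1 with the replicate block, and 1 with PC-12 and RNA libraries 1 left out, and ran from 0 to 2 with a library number left out. The counts that an alternative did not move by over 1.5 times are 141 of 211.

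The allelic effect of 10368845 in front-100 in SH-SY5Y, -0.05, turned positive without library 1 (0.35) or 2 (0.78), the range without 1 library being -1.04 to 0.78, with the replicate block (0.012) and in RNA without the input (1.39). RNA without the input also turned that oligo in HEK-293T (0.73) and PC-12 (0.86), and 10388815 in front-150 in SH-SY5Y (0.22), HEK-293T (0.24) and PC-12 (0.67). That setting compares the RNA counts of the 2 alleles alone, and allele 1 is the rarer in the input of both oligos. Without library 3, the effect of 10175915 in front-50 in PC-12 became -0.72 (range without 1 library -0.72 to 11.39). Without library 1 the difference of front-100 minus front-50 of 10368845 in Neuro-2a became -0.066 (range -0.066 to 1.03). Other causes were not tested. With a PC-12 library left out, 1 RNA library remains and the spread comes from the input alone.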
